A study of Mus musculus with 16 samples.

Results

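Leukaemia harvested from spleen at fatal disease under doxycycline, called secondary disease, was compared with leukaemia of mice without doxycycline in spleen and in bone marrow, in 10 of the 16 RNA sequencing libraries of the series. The comparison took 4 secondary disease libraries against the mean of 3 bone marrow control and 3 spleen control libraries, each tissue weighted equally. Since all secondary disease libraries are from spleen, part of any difference between spleen and marrow stays in this contrast, and each gene's position against the control range is given for that reason. The 10 libraries were chosen by their labels, without use of their values. A gene was placed outside the control range where no secondary disease library overlapped any of the 6 controls, and within it where the mean of secondary disease lay between the lowest and the highest control.

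All cells were GFP-positive mouse leukaemia cells that carry the fusion gene CBFB::MYH11. Per the design text they were transduced with an shRNA against MYH11 that doxycycline switches on, and were transplanted into congenic mice. Bone marrow control and spleen control mice drank water with 5% sucrose for 7 days after engraftment. Secondary disease came from a separate cohort that drank doxycycline (3 mg/ml in 5% sucrose) until signs of fatal disease, for a time that the labels do not give. The other 6 libraries, used for the shared spread and set side by side where named, came from bone marrow or spleen after 7 days of the same doxycycline water. The labels of the controls name only cells expressing the fusion, whereas those of the doxycycline and secondary disease libraries name the shRNA as well. No library came from end-stage leukaemia without doxycycline or from doxycycline without the shRNA, and cohort, stage, drug and knockdown cannot be told apart in this comparison.

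CBFB::MYH11 joins the RUNX partner CBFB to the tail of smooth muscle myosin and is the fusion of inv(16) acute myeloid leukaemia, where it disturbs transcription by RUNX1. Many of the genes described here belong to the interferon response: interferons bind their receptors, a complex of signalling factors enters the nucleus, and that complex binds a GAAA-repeat element before genes of antiviral defence and antigen presentation. Blood cells keep part of this programme on without infection, through a low tonic interferon signal.

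The libraries held between 12.26 and 39.42 M expected counts (reads assigned to genes by an estimate, so not always whole). Secondary disease replicate 4 was the smallest and stood apart from every other library, with a correlation of log CPM (counts scaled to library size) of 0.777 to 0.835 with them, against 0.983 to 0.989 among replicates 1 to 3. Genes that the filter on low counts left out took 4.87% of its counts and 0.0411 to 0.0698% elsewhere. A list of 22 neural genes, chosen after the data were seen, summed to 4580 CPM in replicate 4, to 40.4 to 44 CPM in replicates 1 to 3 and to 35.5 to 50.5 CPM in the 6 controls. The progenitor genes Kit and Myb were low in that library, at 54.1 and 80.3 CPM. For this reason each result is given with and without replicate 4. Myh11, the mouse counterpart of the targeted sequence, had at most 9 counts in any library and was not tested. Cbfb, whose counts include the normal allele, stood at 137, 133, 127 and 72.2 CPM in secondary disease and at 119 to 144 CPM in the controls (log2 difference −0.15 ± 0.21, SE, edgeR adjusted p = 0.807). The fusion itself is therefore not measured by these counts. Of the progenitor markers, Cd34 was at 0 to 0.897 CPM in the 10 libraries and the leukocyte gene Ptprc at 1.45 to 17.3 CPM, while Kit and Myb were well measured.

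Neutrophil genes stood lower in secondary disease replicates 1 to 3 than in either control tissue, and replicate 4 overlapped spleen control in the sum of mature neutrophil genes but not in that of granule-forming progenitors. The summed level of 20 mature neutrophil genes ran from 1010 to 1500 CPM in bone marrow control, from 62.7 to 195 CPM in spleen control and from 3.28 to 26.7 CPM in secondary disease replicates 1 to 3, with 77.9 CPM in replicate 4. For 10 genes of granule-forming progenitors these sums were 66.3 to 159, 10.7 to 22.9, 1.21 to 3.85 and 6.59 CPM. Monocyte and macrophage genes summed to 187 to 227 CPM in bone marrow control, 36.9 to 77.4 CPM in spleen control, 36.6 to 82.6 CPM in replicates 1 to 3 and 218 CPM in replicate 4. T and NK cell genes summed to at most 27.2 CPM in any of the 10 libraries, and Cd3e and Ncr1 were at 0 in 3 and 4 of the 4 secondary disease libraries. In these bulk samples fewer cells of a type and less RNA per cell cannot be told apart.

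**Figure D1:**
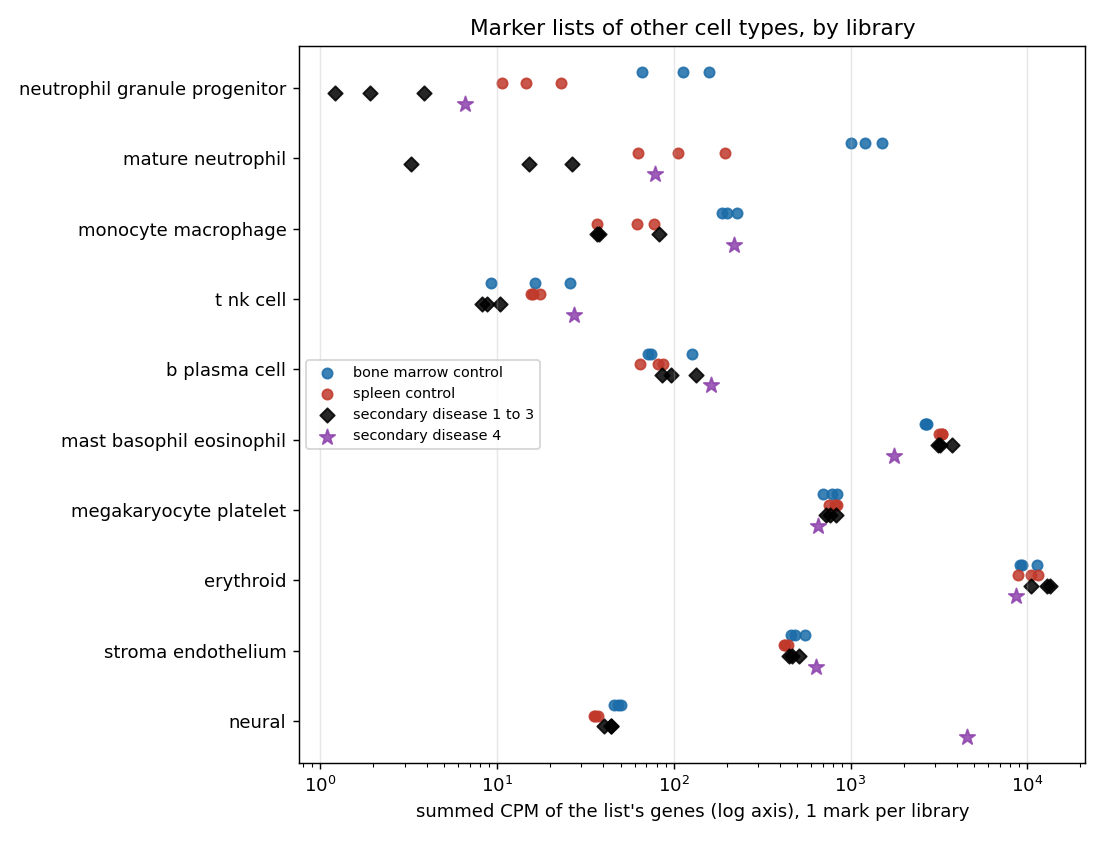
Summed CPM of the marker genes of 10 cell types (log axis), 1 mark per library, in bone marrow control, spleen control and secondary disease. Neutrophil lists run from bone marrow control down to secondary disease, and secondary disease replicate 4 stands alone in the neural list at 4580 CPM.

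With all 4 libraries, 421 of 14435 genes were called (edgeR quasi-likelihood test, adjusted p under 0.05), which is 2.92% of the genes tested: 223 higher (1.54%) and 198 lower (1.37%). Without replicate 4 the count was 419 of 14263 genes (2.94%), and the directions shifted to 114 higher (0.799%) and 305 lower (2.14%). In both fits 241 genes were called in the same direction (1.67%), 84 higher (0.582%) and 157 lower (1.09%). Of the 180 genes called only with replicate 4, 139 were higher, and in 132 of these replicate 4 was above all other 15 libraries. Leaving out any 1 of the 6 controls brought the count of 421 down to between 104 and 119, and with replicate 4 also left out it was between 241 and 284.

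Most of the called genes lay outside the control range. Position and test use the same values, so this follows in part from the definition. With 4 libraries, 110 of the called genes stood above all 6 controls and 175 below all 6, while 119 had a mean outside the range with at least 1 library inside it and 17 lay within it. Over all genes tested, 379 (2.63%) stood above and 593 (4.11%) below. Without replicate 4 the called genes split into 96 above, 281 below, 30 with a library inside and 12 within. Of the 241 genes called in both fits, 205 were outside the range in all 4 libraries, 66 above and 139 below, and these 205 came from 20 chromosomes, at most 2.38% of the genes tested on any one of them (chromosome 13) against 1.42% over all. All 241 had the same sign against each tissue taken singly, which a mean outside the range of all 6 controls largely fixes in advance. Of them, 43 were also called against spleen control and against bone marrow control separately. In all, 293 genes (2.03%, with 0.748% higher and 1.28% lower) were called against spleen control. Against bone marrow control 125 genes were called (0.866%, with 0.0901% higher and 0.776% lower). Without replicate 4 these were 523 genes (3.67%, with 1.14% higher and 2.52% lower) and 314 genes (2.2%, with 0.252% higher and 1.95% lower). The median log2 difference of all genes was 0.002 with 4 libraries and −0.003 without replicate 4.

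**Figure D2:**
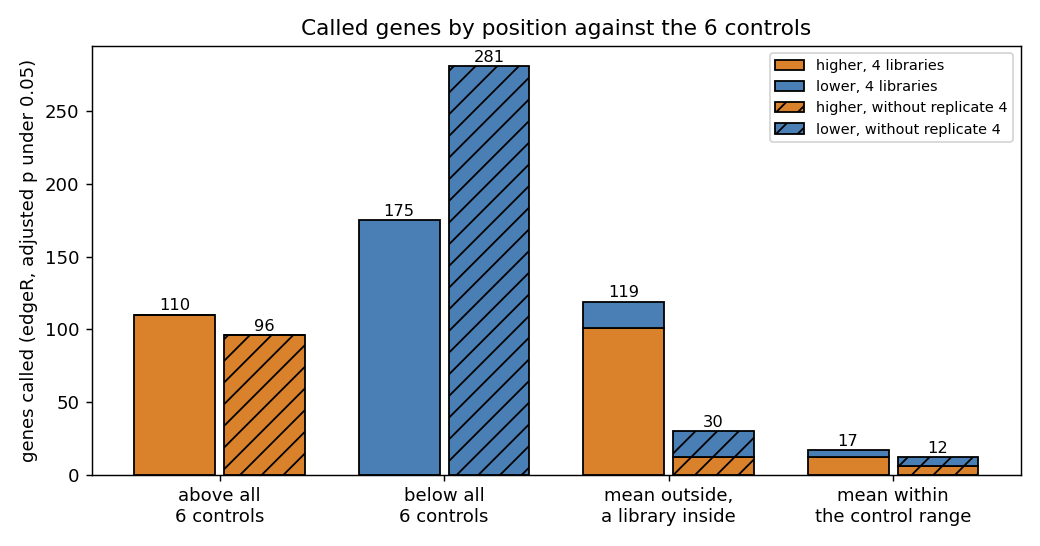
Number of called genes in each position against the 6 controls, stacked by direction, with 4 secondary disease libraries (plain) and without replicate 4 (hatched). The bars of genes with a library inside the range fall from 119 to 30 without replicate 4, while those below all controls rise from 175 to 281.

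Genes of the interferon response were lower in secondary disease than in both tissues. Of 44 such genes, all tested, 19 fell and 0 rose with 4 libraries (1.37% of all genes fell), and 19 fell and 0 rose without replicate 4 (2.14%), 15 of them in both fits (1.09%). All 4 libraries were below every control for 27 of the 44 (4.11% of all genes tested), and the 3 libraries without replicate 4 for 32 (7.52% of all genes). The median log2 difference of the list was −1.45, and −1.87 without replicate 4, beside 0.002 and −0.003 over all genes. Against spleen control and bone marrow control taken singly and without replicate 4, the list's medians were −1.86 and −1.52. The list was chosen with earlier results of these data known, so its counts are a description.

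Promoters of 4 genes that fell are shown because each holds the GAAA-repeat element that this pathway reads. They are the 250 bases before the RefSeq start on GRCm38.p6, written 5′ to 3′ along the gene, and capitals mark GAAA followed by any 2 bases and a second GAAA, searched on both strands with overlapping matches joined.
Tgtp2 (chr11:49064213-49064462, minus strand): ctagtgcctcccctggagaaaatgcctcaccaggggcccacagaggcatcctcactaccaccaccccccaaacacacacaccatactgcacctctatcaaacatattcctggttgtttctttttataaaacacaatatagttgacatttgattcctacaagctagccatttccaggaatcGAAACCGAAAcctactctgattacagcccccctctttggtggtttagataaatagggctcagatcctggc
Irgm1 (chr11:48871421-48871670, minus strand): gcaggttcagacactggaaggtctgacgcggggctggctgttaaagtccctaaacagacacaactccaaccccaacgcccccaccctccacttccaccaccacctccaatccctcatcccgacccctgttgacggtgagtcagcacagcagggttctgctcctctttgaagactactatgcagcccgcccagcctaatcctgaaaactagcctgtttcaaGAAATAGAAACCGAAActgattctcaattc
Bst2 (chr8:71537473-71537722, minus strand): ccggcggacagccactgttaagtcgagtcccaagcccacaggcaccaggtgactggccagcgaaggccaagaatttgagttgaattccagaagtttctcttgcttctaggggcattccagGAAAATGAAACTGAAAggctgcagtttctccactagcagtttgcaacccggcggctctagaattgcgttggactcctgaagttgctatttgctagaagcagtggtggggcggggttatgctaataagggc
B2m (chr2:122147437-122147686, plus strand): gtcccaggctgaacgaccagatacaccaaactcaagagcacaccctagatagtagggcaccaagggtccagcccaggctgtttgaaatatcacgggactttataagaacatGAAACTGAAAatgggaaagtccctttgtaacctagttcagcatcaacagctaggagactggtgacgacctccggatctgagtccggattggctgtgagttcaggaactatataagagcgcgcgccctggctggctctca

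The match in Tgtp2 begins at base −70 before the start, that in B2m at −139, and those in Irgm1 and Bst2 are pairs of overlapping matches that begin at −30 and −130. The motif was found in the 250 bases before a start in 936 of 27025 genes of the table (3.46%) and in 326 of the 10030 tested genes that matched it by symbol (3.25%). Of the 139 genes called in both fits and below all controls, 112 matched and 18 held it (16.1%). Outside the interferon list it was held by 13 of 101 (12.9%). These 13 include Tgtp1, Tgtp2, Oas1g, Oas1c and B2m, so genes off the list are not free of the interferon response. It was found in 0 of the 52 matched genes above all controls, a small set beside the share of 3.25% over tested genes. Among interferon list genes the share was 5 of 11 for those called lower in both fits and 12 of 21 for the others, and so was not higher among the called genes of the list. Irf7 and Ddx58, which also fell, have no match in this window.

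Irf9, which encodes the DNA-binding part of the nuclear complex, fell. It stood at 88.5, 82 and 91.7 CPM in bone marrow control, 128, 140.3 and 131 CPM in spleen control and 56.9, 58.1, 58.9 and 39.1 CPM in secondary disease (log2 difference −1.02 ± 0.19, edgeR adjusted p = 0.0137). Every secondary disease library was below every control, and replicate 4 was the lowest. Stat2, another member of the complex, stood at 46, 42, 42 and 29.8 CPM against 40.5 to 59.7 CPM in the controls and was not called (−0.35 ± 0.15, edgeR adjusted p = 0.245).

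The sensors and amplifiers of the response were lower by more. Irf7 (ENSMUSG00000025498, chromosome 7, 141262706 to 141266481, minus strand, GRCm38), the factor that amplifies interferon production, stood at 30.8, 34.3 and 44 CPM in bone marrow control and 103, 116 and 121 CPM in spleen control. In secondary disease it stood at 9.32, 10.9, 9.88 and 14.8 CPM (−2.52 ± 0.41, edgeR adjusted p = 0.00694, and −2.68 ± 0.47 without replicate 4). The highest secondary disease library, replicate 4, was below the lowest control. Ddx58, which encodes the viral RNA sensor RIG-I, went from 37.5, 45.2 and 50.1 CPM in marrow and 121, 115 and 112 CPM in spleen to 13.3, 11.8, 14.6 and 13.2 CPM (−2.44 ± 0.31, edgeR adjusted p = 0.00286). The 4 secondary disease libraries lay close together, replicate 4 among them.

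Among the interferon genes named here, Oas2 and Rtp4 showed the largest differences, while others such as Ifit2 differed less than Irf7 and Ddx58. Oas2, an enzyme that makes the signal for RNA decay in infected cells, stood at 4.41, 6.002 and 8.27 CPM in bone marrow control, 16.2, 21.1 and 21.1 CPM in spleen control and 0.414, 0.0782, 0.039 and 0 CPM in secondary disease (−6.19 ± 0.84, edgeR adjusted p = 0.00317). Rtp4, a chaperone-like protein with antiviral activity, went from 5.14 to 19.7 CPM in marrow and 53.1 to 58.8 CPM in spleen to 0.124, 0.391, 0.429 and 1.04 CPM (−5.94 ± 0.84, edgeR adjusted p = 0.00384). Usp18, which removes ISG15 from proteins and damps the receptor, went from 9.95, 12.9 and 11.5 CPM and 41.7, 45 and 47 CPM to 1.28, 2.27, 2.58 and 1.13 CPM (−3.61 ± 0.46, edgeR adjusted p = 0.00286). For these genes spleen control was higher than bone marrow control and secondary disease was far below both. Oas1a, Oasl1, Trim30a, Bst2, Xaf1, Irgm1, Igtp and Ifit2 also fell in both fits, with log2 differences between −3.79 (Trim30a) and −0.87 (Ifit2). Tgtp2, an interferon-inducible GTPase that the list does not hold, fell from 14.7, 30.6 and 43.7 CPM in marrow and 123.2, 119 and 110.3 CPM in spleen to 1.86, 1.64, 2.23 and 2.6 CPM (−4.84 ± 0.59, edgeR adjusted p = 0.00244). Tgtp2 has the near-identical copy Tgtp1, and Oas1a near copies in its cluster, so that counts may be split between them.

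Members that did not pass in both fits included Isg15, at 6.91, 10.2, 11 and 12.6 CPM against 15.9 to 88.9 CPM in the controls (edgeR adjusted p = 0.0350 with 4 libraries and 0.0522 without replicate 4). Ifit1 (−0.65 ± 0.84) and Nmi (−0.32 ± 0.15) were called in neither fit. Cmpk2 stood at 0.248, 0 and 0 CPM in replicates 1 to 3 and at 12.6 CPM in replicate 4, and fell only when replicate 4 was left out (−3.95 ± 0.81, edgeR adjusted p = 0.0201).

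**Figure D3:**
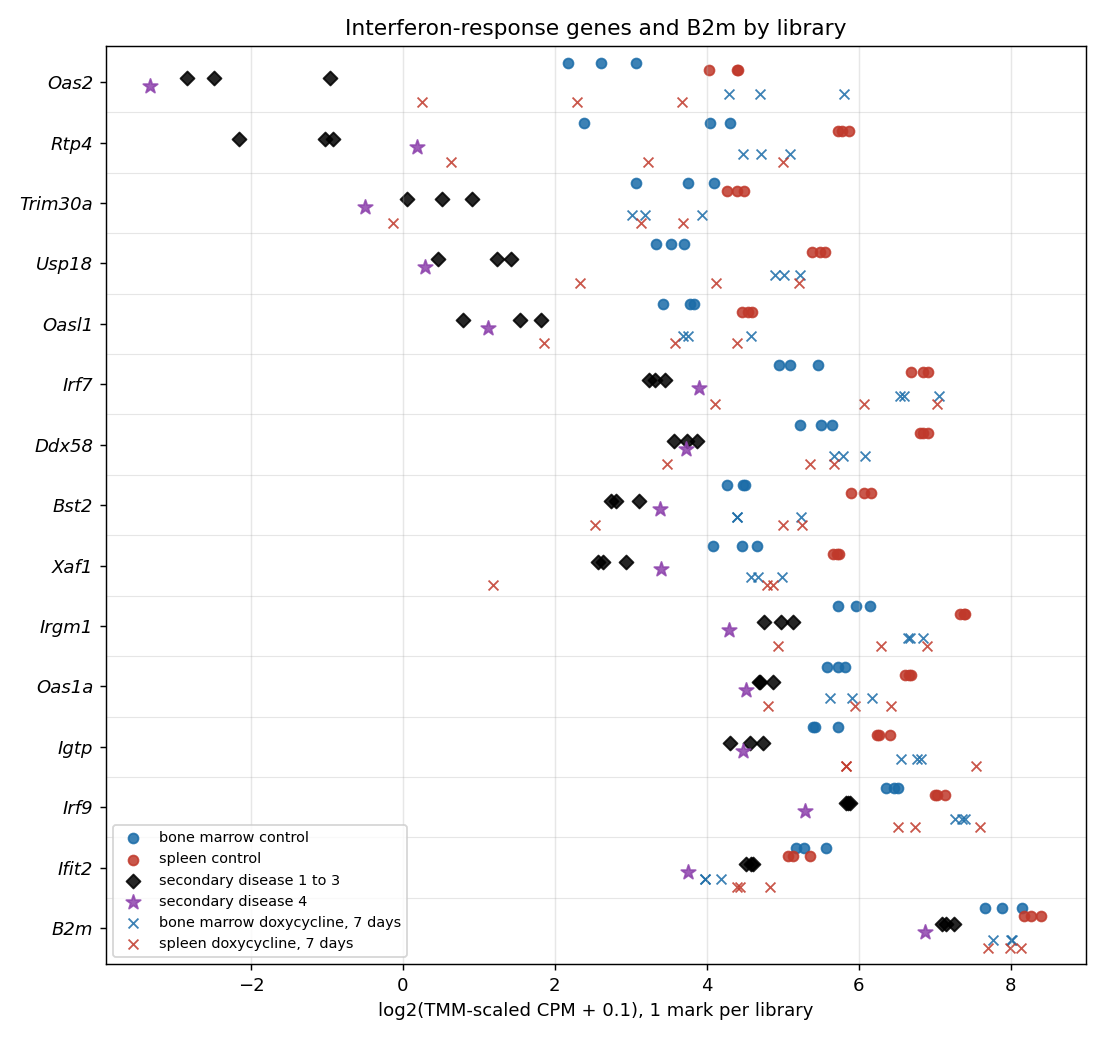
Level of 14 interferon-response genes and B2m as log2(CPM + 0.1), 1 mark per library, in controls (circles), secondary disease (diamonds, and a star for replicate 4) and 7-day doxycycline libraries (crosses). Diamonds and stars lie left of every circle in all 15 rows, and 1 spleen doxycycline library lies near them in many rows.

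Class I antigen presentation, which interferon also raises, was lower in part. Of 15 genes, B2m, Nlrc5 and Tapbp fell with 4 libraries (1.37% of all genes fell) and B2m and Nlrc5 in both fits (1.09%). The call of Tapbp held in 6 of 27 alternatives. In all 4 libraries 8 genes were below every control (4.11% of all genes), and 11 without replicate 4 (7.52%), with a median log2 difference of −0.72 (−0.67 without replicate 4). B2m, the light chain that every class I molecule needs (ENSMUSG00000060802, chromosome 2, 122147686 to 122153083, plus strand), stood at 204, 285 and 238 CPM in bone marrow control, 288, 338 and 307 CPM in spleen control and 142, 153, 137 and 117 CPM in secondary disease (−0.998 ± 0.129, edgeR adjusted p = 0.00286). All 4 libraries were below all 6 controls. The heavy chain genes H2-K1 and H2-D1 were also below every control, at −0.55 ± 0.17 and −0.65 ± 0.27, without passing (edgeR adjusted p = 0.0950 and 0.224). Nlrc5, the regulator that switches class I genes on, was near the floor in secondary disease, at 0.248, 0.0782, 0.156 and 0 CPM against 0.367 to 7.41 CPM (−3.64 ± 0.83, edgeR adjusted p = 0.0354), and was called in 10 of 26 alternatives. Of 11 class II genes 0 were called in either fit, beside 2.92% and 2.94% of all genes.

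The interferon genes were higher in spleen control than in bone marrow control, whereas the neutrophil genes above were higher in bone marrow control. The part that other cells had in the interferon values was not tested.

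Outside these lists, genes that fell included surface receptors and adhesion genes. Ptgir, the prostacyclin receptor, stood at 26.8, 18.4 and 26.2 CPM in bone marrow control, 64.5, 76.7 and 69.99 CPM in spleen control and 0.704, 0.547, 0.312 and 0 CPM in secondary disease (−6.57 ± 1.29, edgeR adjusted p = 0.0209). It was near 0 in all 4 secondary disease libraries, and its call held in 17 of 27 alternatives. Of 28 adhesion and homing genes, Itgb2, Itgb3, Itgal, Ccr1 and Itgb7 fell with 4 libraries (1.37% of all genes fell), 4 of them in both fits (1.09%), 0 rose, and the list's median was −0.16 (−0.55 without replicate 4).

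Itgal and Itgb2 encode the chains of the leukocyte integrin LFA-1. Itgb2 stood at 26.8, 16.8 and 25 CPM in bone marrow control, 9.28, 8.98 and 8.4 CPM in spleen control and 3.4, 2.38, 1.6 and 2.6 CPM in secondary disease (−2.51 ± 0.37, edgeR adjusted p = 0.00440). Itgal stood at 11.8, 7.57 and 11.3 CPM, at 22.3, 18.2 and 21.6 CPM and at 1.74, 0.86, 0.664 and 0 CPM (−4.09 ± 0.81, edgeR adjusted p = 0.0211). The tissues differed in opposite directions for the 2 chains, Itgb2 being higher in marrow and Itgal in spleen, and secondary disease was below both for each. Both are also expressed by neutrophils and other leukocytes, and between the control tissues Itgb2 ran with the neutrophil sums above and Itgal against them. The part of other cells in both was not tested. Itgb3, the β chain of the platelet integrin, fell from 1.29 to 2.28 CPM in marrow and 5.7 to 7.3 CPM in spleen to 0.207, 0.313, 0.351 and 0.173 CPM (−3.72 ± 0.57, edgeR adjusted p = 0.00594). F2r, the thrombin receptor gene, went from 21.1, 19.9 and 19.3 CPM and 81.3, 76.8 and 77.7 CPM to 10.4, 12.4, 9.8 and 10.1 CPM (−1.90 ± 0.29, edgeR adjusted p = 0.00629). The remaining 10 of 12 megakaryocyte and platelet genes were not called.

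Several genes known from other tissues were well detected in every control and low in secondary disease. Cldn3, a tight junction gene, stood at 74.1, 73.7 and 93.3 CPM in marrow, 32.3, 42.4 and 40.3 CPM in spleen and 0.455, 0.86, 0.469 and 2.6 CPM in secondary disease (−5.82 ± 1.29, edgeR adjusted p = 0.0343). Nav2, a cytoskeletal gene known from axon growth, went from 67.8, 67.3 and 103 CPM and 110.0, 111 and 116 CPM to 7.91, 0.821, 0.546 and 6.85 CPM (−4.59 ± 1.01, edgeR adjusted p = 0.0335), and replicates 1 and 4 were above the other 2. Pax6, a transcription factor of eye and brain, went from 38.8, 47.1 and 48.2 CPM and 79.4, 79.9 and 80.4 CPM to 9.11, 3.95, 4.06 and 3.38 CPM (−3.53 ± 0.62, edgeR adjusted p = 0.0105). Mnd1, a meiotic recombination gene, stood at 49.8 to 59.5 CPM in marrow, 63.4 to 75.6 CPM in spleen and 1.65 to 6.64 CPM in secondary disease (−3.72 ± 0.65, edgeR adjusted p = 0.0105). In each of the 4 genes every secondary disease library was below every control. The call of Cldn3 held in 9 and that of Nav2 in 13 of 27 alternatives, and the difference was negative in all 27 for each.

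Ankrd33b showed how far replicate 4 could move a value: it stood at 0.207, 0.274 and 0.117 CPM in replicates 1 to 3 and at 8.76 CPM in replicate 4, below 42.4 to 61.7 CPM in marrow and 179.6 to 185 CPM in spleen (−5.64 ± 1.42, edgeR adjusted p = 0.0495, and −8.91 ± 1.57 without replicate 4). Tfcp2, a transcription factor of globin and other genes, and Fgf2, a growth factor, fell with tighter values. Tfcp2 went from 43.9, 38.4 and 36.4 CPM and 118, 117 and 107 CPM to 10.6, 11.7, 11.8 and 20.99 CPM (−2.29 ± 0.30, edgeR adjusted p = 0.00286). Fgf2 went from 24.5, 23.4 and 33.3 CPM and 45.1, 41.9 and 41.9 CPM to 6.09, 11.7, 9.8 and 6.94 CPM (−1.98 ± 0.29, edgeR adjusted p = 0.00487). Neither group overlapped the other in these 3 genes.

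**Figure D4:**
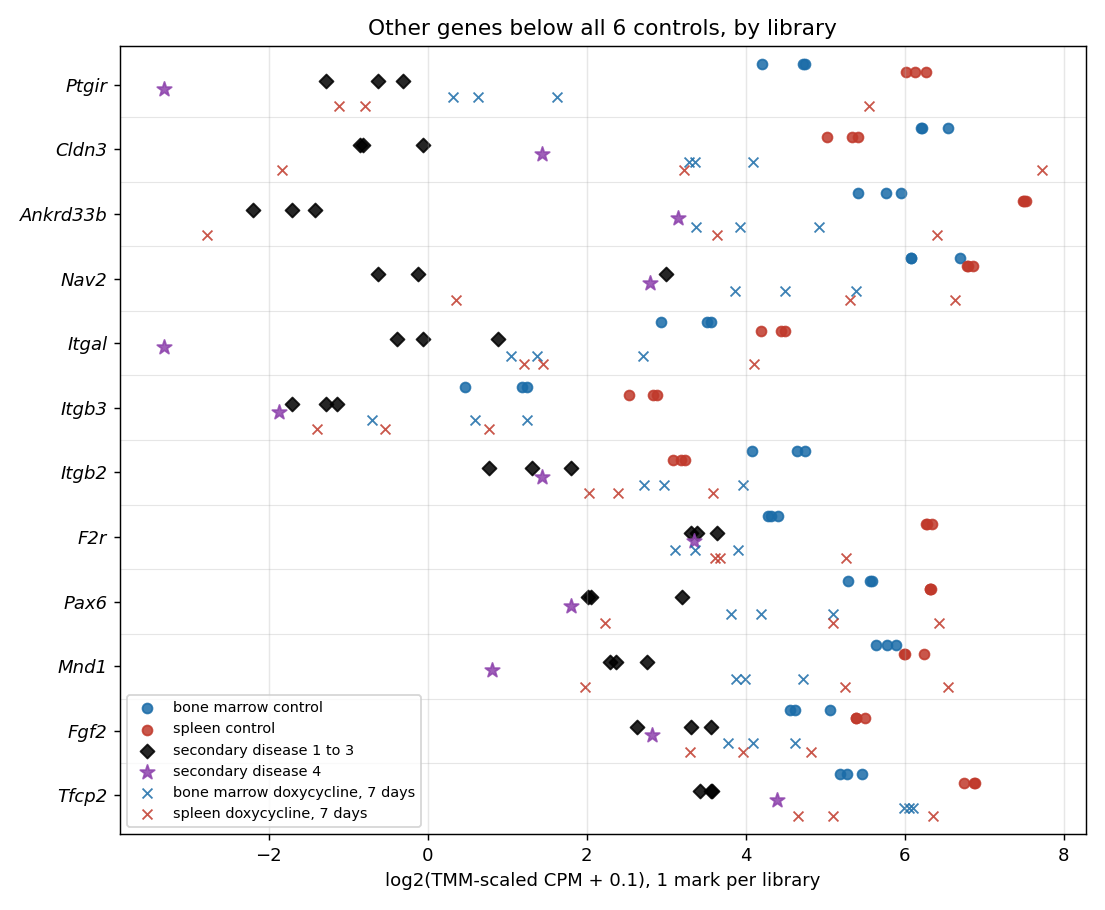
Level of 12 genes outside the interferon list that were below all 6 controls, as log2(CPM + 0.1), 1 mark per library, with the 7-day doxycycline libraries as crosses. Ptgir, Cldn3 and Ankrd33b show the widest gaps between secondary disease replicates 1 to 3 and the controls.

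Neutrophil genes were lower in large numbers beside the marker sums given above. Of 19 mature neutrophil genes tested, 11 fell with 4 libraries (1.37% of all genes fell), and 16 of the 18 tested without replicate 4 fell (2.14%), 11 of them in both fits (1.09%). Of 10 granule progenitor genes 7 fell with 4 libraries and 8 without replicate 4, beside the same shares of all genes. The medians were −4.14 and −4.37 with 4 libraries. Ltf, the lactoferrin of secondary granules, stood at 225, 164 and 169 CPM in bone marrow control, 37.7, 9.06 and 18.9 CPM in spleen control and 4.31, 2.11, 0.351 and 4.16 CPM in secondary disease (−4.58 ± 0.78, edgeR adjusted p = 0.00980). Chil3, Camp, Lcn2 and Cd177 followed the same order of groups, with differences between −5.00 and −4.21. Cebpe, the factor that drives granule genes, was at 4.39 to 12.1 CPM in marrow, 6.74 to 7.79 CPM in spleen and at most 0.166 CPM in secondary disease (−6.29 ± 1.11, edgeR adjusted p = 0.0109), so that its 2 control groups overlapped while those of Ltf did not. Against spleen control alone, the tissue of secondary disease, the differences of Ltf and Camp were −3.04 and −2.41 and were not called (edgeR adjusted p = 0.0698 and 0.139).

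Fewer genes stood above both tissues in both fits. Lmna (ENSMUSG00000028063, chromosome 3, 88480147 to 88509956, minus strand), which encodes the A-type nuclear lamins, stood at 0.653, 0.179 and 1.36 CPM in bone marrow control, 2.38, 2.75 and 2.8 CPM in spleen control and 12.1, 38.7, 28.1 and 44.7 CPM in secondary disease (4.48 ± 0.69, edgeR adjusted p = 0.00593, and 4.25 ± 0.73 without replicate 4). Replicate 1 was the lowest of the 4 and still above every control. It was the only 1 of 15 nuclear lamina genes called in either fit, beside 2.92% and 2.94% of all genes, and the list's median was −0.17. In the 7-day doxycycline libraries Lmna stood at 88, 119 and 105 CPM in marrow and at 8.09, 232 and 86.6 CPM in spleen.

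Clstn3, a calsyntenin of the cell surface, stood at 92.9, 55.7 and 66.7 CPM in bone marrow control, 16.3, 14.1 and 19.1 CPM in spleen control and 159, 174, 179.9 and 275 CPM in secondary disease (2.52 ± 0.27, edgeR adjusted p = 0.00126). Wwc2, a regulator of the Hippo pathway, went from 8.53, 9.003 and 10.1 CPM and 2.51, 1.25 and 1.94 CPM to 25.3, 16.8, 16.6 and 25.8 CPM (2.33 ± 0.24, edgeR adjusted p = 0.00126). Both were higher in marrow than in spleen among controls, and secondary disease, although from spleen, was above marrow. Pkn3, a protein kinase, went from 35.1 to 43.3 CPM in marrow and 15 to 17.2 CPM in spleen to 86.5, 75.7, 72.7 and 82.2 CPM (1.68 ± 0.18, edgeR adjusted p = 0.00126), with replicate 4 among the others. Acer3, a ceramidase, went from 4.39 to 6.93 CPM in marrow and 0.393 to 0.792 CPM in spleen to 8.07, 9.18, 9.96 and 22.03 CPM (2.78 ± 0.47, edgeR adjusted p = 0.00972), with replicate 4 the highest.

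Il9r and Pdlim1 overlapped between the control tissues. Il9r, the receptor chain for interleukin 9, stood at 132, 97.1 and 118 CPM in marrow, 101, 132 and 128 CPM in spleen and 264, 299, 281 and 177 CPM in secondary disease (1.11 ± 0.18, edgeR adjusted p = 0.00673). Its differences were 1.08 against spleen and 1.14 against marrow. Pdlim1, an adaptor of actin fibres, stood at 50.4 to 56.5 CPM in marrow, 53.2 to 54.6 CPM in spleen and 99, 144, 126 and 72.2 CPM in secondary disease (1.04 ± 0.17, edgeR adjusted p = 0.00829). Replicate 4 was the nearest to the controls for both genes. Both were also called against each tissue singly.

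Slc22a23 and Pmp22 were lower in replicate 4 than in the other libraries of the group. Slc22a23, a solute carrier gene, stood at 69, 66.4, 75.9 and 34.4 CPM, above 22.4 to 27.6 CPM in marrow and 4.34 to 5.43 CPM in spleen (2.49 ± 0.50, edgeR adjusted p = 0.0218). Pmp22, a peripheral myelin gene also found in other cells, stood at 17.2, 28.4, 25.1 and 12.2 CPM, above 5.92 to 8.47 CPM in marrow and 1.25 to 2.11 CPM in spleen (2.60 ± 0.59, edgeR adjusted p = 0.0356), and its call held in 10 of 27 alternatives.

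Another set of the genes above all controls was highest by far in replicate 4, the library with the neural genes, and that library's part in their values is shown by leaving it out. Cplx2, a synaptic vesicle gene, stood at 296 CPM in replicate 4 and at 11.6, 7.23 and 6.29 CPM in replicates 1 to 3, against 0 to 1.53 CPM in the controls (7.56 ± 1.202, edgeR adjusted p = 0.00673, and 4.30 ± 0.62 without replicate 4). Clu, a secreted chaperone, stood at 249 CPM in replicate 4 and at 44.5, 29.7 and 28.6 CPM in the others, against 0.988 to 7.68 CPM (5.12 ± 0.73, edgeR adjusted p = 0.00384, and 3.77 ± 0.52 without replicate 4). Map1b, a microtubule protein of neurons, stood at 346 CPM in replicate 4 and at 114, 86.1 and 87.7 CPM in the others, against 7.64 to 38.2 CPM (3.24 ± 0.43, edgeR adjusted p = 0.00314, and 2.52 ± 0.32 without replicate 4). Tppp (5.56 ± 0.74 and 4.35 ± 0.55), Kifap3 (3.31 ± 0.68 and 1.62 ± 0.40) and Acot7 (2.90 ± 0.61 and 1.17 ± 0.25) had the same form. In each, replicates 1 to 3 were above every control. The 22 neural genes summed to 40.4 to 44 CPM in those replicates and to 35.5 to 50.5 CPM in the controls. The part of neural RNA in the values of replicates 1 to 3 was not tested. The calls of Kifap3 and Acot7 held in 13 of 27 and 13 of 26 alternatives.

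**Figure D5:**
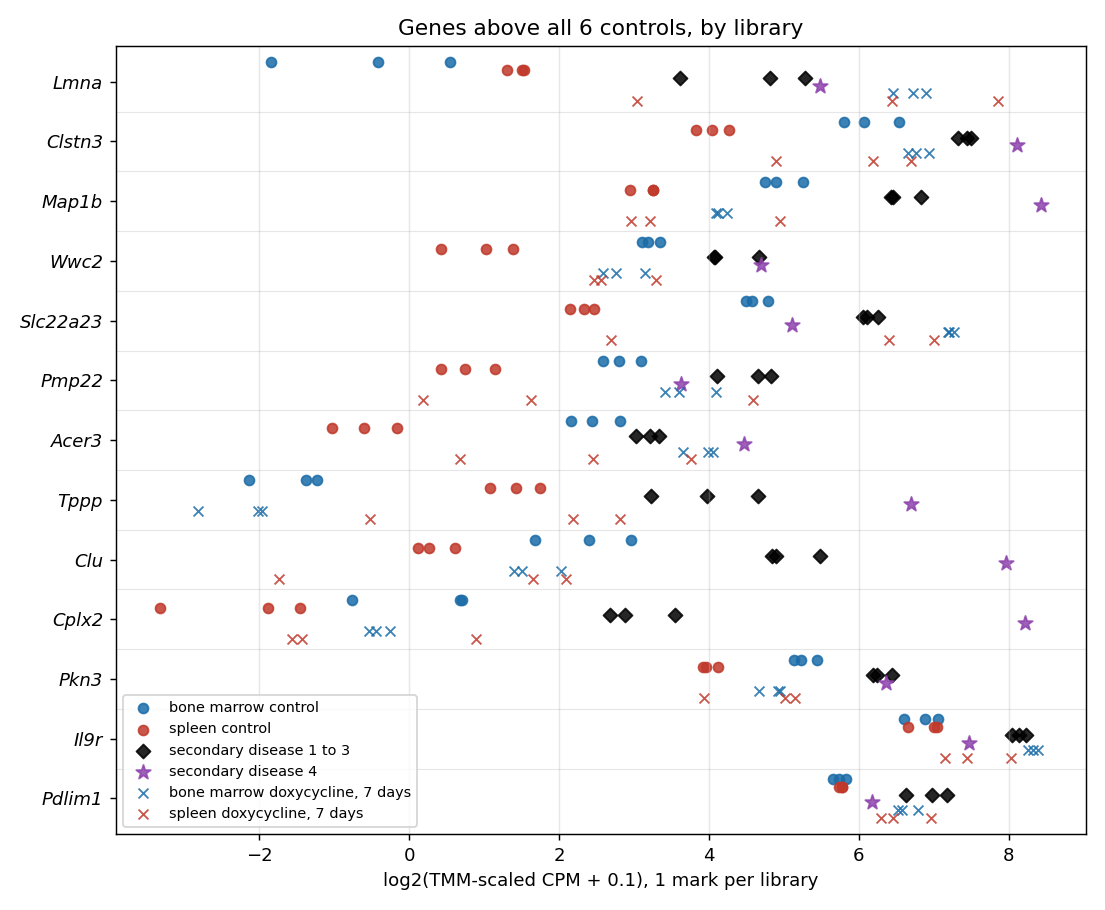
Level of 13 genes above all 6 controls as log2(CPM + 0.1), 1 mark per library, with the 7-day doxycycline libraries as crosses. Replicate 4 (star) lies far to the right of replicates 1 to 3 for Cplx2, Clu, Tppp and Map1b and not for Pkn3, Wwc2 or Il9r.

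Genes inside the tissue range were seldom called, which follows in part from how that class is defined. Both fits called 0 genes within the range whose average log2 CPM reached 3. Without replicate 4, secondary disease took the level of bone marrow control for a few genes. Kit, the stem cell factor receptor, stood at 137, 163 and 166 CPM in replicates 1 to 3, near 157, 101 and 127 CPM in marrow and above 78.9, 62.8 and 76.6 CPM in spleen (0.68 ± 0.17, edgeR adjusted p = 0.0476). With replicate 4 at 54.1 CPM the difference was 0.43 ± 0.26 and was not called (edgeR adjusted p = 0.480). Against spleen control without replicate 4 it was 1.09 and called (edgeR adjusted p = 0.01), and against bone marrow control 0.27 and not called. Plpp1, a lipid phosphatase, showed the same order, with 82.9, 84, 81.2 and 66.3 CPM in secondary disease, 69.7 to 83.2 CPM in marrow and 45.6 to 48.5 CPM in spleen. Cd37, a tetraspanin of B and other leukocytes, stood at 23.1, 21.7, 17.7 and 29.1 CPM in secondary disease, 12.8 to 21.7 CPM in marrow and 6.29 to 8.42 CPM in spleen. It was called in both fits with libraries inside the control range (0.99 ± 0.21, edgeR adjusted p = 0.0282, and adjusted p = 0.0474 without replicate 4).

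Some list members were called with 4 libraries and not without replicate 4, where Sparc was not tested. Sparc, a matrix protein gene, stood at 217 CPM there and at 0 to 0.469 CPM in the other 9 libraries compared. Aldoc, a glycolytic enzyme of brain, stood at 325 CPM against 0.25 to 0.902 CPM. Rasgrp1, an activator of Ras, stood at 95.2 CPM against 0.129 to 0.893 CPM. Replicates 1 to 3 overlapped the controls for each of them.

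Calls among regulators of the leukaemia and of growth were few, beside 2.92% of all genes called with 4 libraries and 2.94% without replicate 4. At that share any 1 list of this size gives few calls or 0. Of 32 core-binding and haematopoietic transcription factors 0 were called with 4 libraries, and Tcf4 alone fell without replicate 4. Runx1, the partner of the fusion, was below every control, at 173, 169.6, 171 and 99.4 CPM against 220.5 to 259 CPM, but did not pass (−0.63 ± 0.24, edgeR adjusted p = 0.191, and −0.47 ± 0.24, adjusted p = 0.445 without replicate 4). Gata2 (−0.28 ± 0.25), Il1rl1 (−0.36 ± 0.46), Myc (−0.13 ± 0.19) and Mki67 (−0.35 ± 0.29) were not called in either fit. Of 30 DNA replication genes, 30 mitosis genes, 41 cytosolic ribosome genes and 25 p53 targets 0 were called in either fit, with medians between −0.29 and 0.08.

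Cholesterol synthesis gave calls that changed with replicate 4. Fdps alone of 27 genes rose with 4 libraries (1.54% of all genes rose). Without replicate 4, 3 genes rose, Sqle and Insig1 among them (0.799% of all genes). In that fit 10 genes were above every control (6.15% of all genes) and the median was 0.25. Of 29 erythroid genes 0 were called, although Hbb-bt and Rhag were above every control in all 4 libraries. The 13 mitochondrially encoded genes had a median of 1.05 with 4 libraries and 0.53 without replicate 4, and mt-Cytb alone was called, with 4 libraries. Heat shock, unfolded protein, immediate early, BCL2 family, NF-kB and histone modifier lists gave 0 calls in either fit. Over all genes 2.92% were called with 4 libraries and 2.94% without replicate 4. For lists of this size, the erythroid list included, 0 calls are near that share.

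The 7-day doxycycline libraries share the controls with this comparison, and their values are set side by side without a test. Spleen doxycycline replicate 3 was near secondary disease for Usp18 (4.94 CPM), Irf7 (17.2 CPM), Ddx58 (11.01 CPM), Lgals3bp (7.25 CPM), Cldn3 (0.181 CPM), Nav2 (1.18 CPM), Ankrd33b (0.0453 CPM), Pax6 (4.58 CPM) and Mnd1 (3.85 CPM). Spleen doxycycline replicates 1 and 2 stood at 17.3 and 37.1 CPM for Usp18, at 99.4 and 39.5 CPM for Nav2 and at 93.1 and 37.8 CPM for Mnd1. Bone marrow doxycycline stood at 29.8, 37.3 and 32.2 CPM for Usp18 and at 93.1, 133 and 96.5 CPM for Irf7, above bone marrow control. Ptgir was low in all bone marrow doxycycline libraries (1.45, 2.98 and 1.15 CPM) and in spleen doxycycline replicates 2 and 3 (0.479 and 0.362 CPM), and at 46.8 CPM in replicate 1. For Map1b, Clu and Wwc2 every 7-day doxycycline library was below every secondary disease library.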

How the data were processed

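Poly(A) RNA of GFP-sorted leukaemia cells was sequenced. The authors deposited 1 table of expected counts per gene, unscaled, for 16 libraries, and 1 file of TPM per library. RSEM, STAR, MultiQC, FastQC and Trim Galore, with build GRCm38, appear in the submitters' processing notes without versions, and no label states the strandedness. Expected counts were rounded, named from GENCODE M21 and filtered with filterByExpr. They were scaled by TMM and fitted in 1 edgeR quasi-likelihood model of all 16 libraries (5 groups), with Benjamini-Hochberg adjustment at 0.05 (R 4.3.3, edgeR 4.0.16, limma 3.58.1). CPM are TMM-scaled. The deposited TPM served as an alternative for the position against the control range.

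Groups came from the labels, which do not say that replicates are separate animals, so p-values may measure technical spread only. Libraries were not paired by replicate number in the main fit. By rule the genes to name are the 12 largest changes per direction outside the control range called in both fits and reaching an average log2 CPM of 3, up to 5 per direction within it, up to 4 genes per list by p, and fixed anchor genes. The text gives those of the lists it describes gene by gene and the other lists by counts. Further genes were chosen after their values were seen. The members and gene lists were chosen with earlier results of these data known.

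Alternatives were DESeq2 1.42.0 (test and size factors), limma-voom, other filters, a replicate block, a 1.2-fold test and fewer libraries. On simulated data for this contrast, 68% of 2-fold and 94% of 4-fold changes were recovered with all 16 libraries (14189 genes), and 86% and 95% without replicate 4 (13908 genes). Some genes that the rule picks are not reported here.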

Additional observations from a re-analysis of the deposited data

Results flagged for a closer look

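In secondary disease, 12 of 53 quantities checked had 1 library far from the other 3, and it was replicate 4 each time. Chance flags about 1 in 20 groups where these are independent. The quantities here come from the same 4 libraries, and some genes were picked after their values were seen. That rate is therefore no benchmark for the flags. The number given for each is the gap to the nearest library as a share of the range of the 4 (on the log2 scale for genes). It stood high for Cplx2 (0.843, at 296.5 CPM), Acot7 (0.898, at 121.1 CPM), Ankrd33b (0.854, at 8.76 CPM) and Tfcp2 (0.849, at 20.99 CPM). It stood low for Slc22a23 (0.831, at 34.43 CPM), Cbfb (0.88, at 72.16 CPM), Runx1 (0.967, at 99.4 CPM), Il1rl1 (0.888, at 620.7 CPM), Mki67 (0.834, at 499.1 CPM) and Irf9 (0.915, at 39.12 CPM). The total count of replicate 4 was low (0.861, at 12.26 M counts), and the share of its counts in genes left out by the filter was high (0.941, at 4.87%). The same library held 4580 CPM of neural genes, and the part of that RNA in these values was not tested.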

How the results depend on the processing

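Counts of called genes moved with the set of libraries and the test. The counts were 421 against the mean of both tissues, 293 against spleen control, 125 against bone marrow control and 285 both called and outside the control range. Leaving out 1 library in turn gave 104 to 508, 61 to 523, 24 to 314 and 94 to 377. Each control left out brought the first count to 104 to 119. Leaving out replicate 4 of secondary disease together with 1 control, chosen after seeing the data, gave 241 to 284, 210 to 451, 154 to 280 and 223 to 264. Without a filter the counts were 116, 134, 49 and 101, and a mean count of at least 50 left 56 against bone marrow control. With only the 10 libraries compared, 538 genes were called against the mean, 621 against spleen and 255 against marrow. DESeq2's test called 758, 756 and 395 genes, limma-voom 257 against the mean, and limma-voom with sample quality weights 3088, 4651 and 1693. The cause was not tested.

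The replicate block gave 308 genes against the mean, 421 against spleen and 229 against marrow. Equal numbers correlated at −0.136 to 0.131 over 9 pairs, and unequal numbers at −0.178 to 0.168 over 18 pairs. No pairing by number was seen, and these values cannot exclude one. The share of higher calls was 53% in the main fit, 27.2% without replicate 4, 26.8% with limma-voom, 24.4% with the block and 32.5 to 37.5% without 1 control. With only the 10 libraries compared the share was 40.5%. It was 67.8, 73.6 and 73.9% without secondary disease replicate 1, 2 and 3.

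For 41 called genes, 895 of 1101 alternative values stayed called in the same direction, 206 lost the call and 0 reversed. Many of the 41 were picked because both fits called them, so their call without replicate 4 was fixed in advance. For 28 genes not called, 47 of 753 values gained a call, 20 of them with quality weights and 11 with DESeq2's test, and 13 changed sign, those of Cbfb and Myc. Cbfb became 0.0182 with the block and 0.002 with quality weights, and ranged from −0.2208 to 0.0492 over the fits without 1 or 2 libraries. Myc became 0.0026 with the block and ranged from −0.2127 to 0.0477 over those fits. Neither was called in any of the settings that changed its sign.

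Replicate 4 had the fewest counts, which limits low genes in that library most. Levels under about 3 counts are not distinguished from 0.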

Other observations

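Xist, the RNA that silences one X chromosome in female cells, was chosen after its values were seen. It stood at 803, 1063 and 1253 CPM in bone marrow control, 1692, 1726 and 1769 CPM in spleen control and 121.5, 2.62, 3.87 and 23.9 CPM in secondary disease (log2 difference −5.14 ± 1.27, edgeR adjusted p = 0.0452, and adjusted p = 0.106 without replicate 4). Spleen doxycycline replicate 3 stood at 11.4 CPM, and the other 5 libraries of the 7-day groups at 162 to 1113 CPM. Of the Y-linked genes, Ddx3y stood at 0 to 0.173 CPM in secondary disease and 0.129 to 1.02 CPM in the controls. Eif2s3y stood at 0 CPM in secondary disease and 0 to 1.19 CPM in the controls. The cause of the Xist difference was not tested. Of 428 genes tested on chromosome X, 3 (0.701%) were called in both fits and outside the control range, beside 1.42% over all chromosomes.

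Myh10, a non-muscle myosin heavy chain, stood at 28.6 to 41.6 CPM in bone marrow control, 89.6 to 91.5 CPM in spleen control, 0.117 to 0.911 CPM in secondary disease replicates 1 to 3 and 134 CPM in replicate 4. It was not called with 4 libraries (edgeR adjusted p = 0.868) and fell without replicate 4 (−6.75 ± 1.23, edgeR adjusted p = 0.013).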
